A study of Thermochaetoides thermophila with 9 samples.

Results

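The genes described here were lowered in glucose relative to both sugar-free and xylose medium and were not raised by xylose. In total, 70 of the 7785 listed genes met this rule. It selected on the measured read counts themselves, divided by a size factor per library (normalised reads below). Each glucose library had to lie below each reference and each xylose library, which held for 9.76% of all genes tested. In addition, the mean in glucose was at most 1/3 of the mean in the reference and of the mean in xylose, the mean in xylose was below 1.5 times the mean in the reference, and the mean in the reference was at least 100 normalised reads. A list of 6 genes was left out beforehand, and 24 other genes met the glucose conditions with a xylose to reference ratio of 1.5 or more. The rule thus used all 3 comparisons between conditions, so the members were chosen by these values and their fold changes are a description and carry no test.

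The data came from wild-type mycelia of Chaetomium thermophilum, a filamentous fungus that thrives at high temperature and degrades plant material. According to the sample labels, the cultures grew in complete medium at 50 °C and were then kept for 48 h in minimal medium without a sugar, which still holds salts, peptone and yeast extract, and 3 cultures per condition then spent another 6 h without sugar (reference), with 1% glucose or with 1% xylose. PolyA RNA of each culture was sequenced, which gave 9 libraries. The text of the study differs from the labels: it describes a culture in glucose-containing medium before the sugar-free medium, gives in places a shorter depletion or a higher temperature, and can be read to place the reference before the sugars were added. Whether the reference is a parallel or an earlier sample is thus not settled, and the effect of glucose cannot be told apart from that of the additional time if it is earlier.

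In filamentous fungi, glucose is a preferred carbon source, and its presence switches off many genes that serve the use of other carbon sources. This carbon catabolite repression acts on secreted enzymes that open up plant cell walls and on parts of the metabolism of alternative substrates. Xylose, a pentose released from hemicellulose, acts as an inducer of part of these genes and can also feed the central metabolism. Starved mycelia in addition recycle their own material.

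Totals of counted reads lay between 38806913 and 52229013 per library. A single gene, CTHT_0000050 for 26S ribosomal RNA, took from 7.36% to 32.0% of a library, so totals alone do not show how deeply mRNA was sampled. All 70 genes passed the filter on low counts, as did 6904 genes in total, and none had a count of 0 in any library. All 70 are protein-coding in the RefSeq annotation. The annotation columns used here gave 36 of them a product name or a KEGG orthology (KO) assignment, and 34 remained uncharacterised.

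Relative to the reference, the mean of the 70 genes in glucose was lower by a factor between 3.02 and 50.2, with a median of 5.66. The factor was 10 or more in 14 genes, from 5 to under 10 in 25 genes and under 5 in 31 genes. The median log2-fold change was -2.52, compared with -0.05 over all genes tested. In edgeR's quasi-likelihood test all 70 genes were called lower in glucose, beside 25.4% of all genes tested, and 69 were called higher in xylose than in glucose, beside 28.2%. These calls follow from the rule and nothing is read from them. In bulk RNA, a lower level in each hypha and fewer hyphae that express a gene cannot be told apart.

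Together the 70 genes took 0.831% to 1.82% of the counted reads in the reference libraries, 0.0663% to 0.134% in the glucose libraries and 0.363% to 0.956% in the xylose libraries. A large part of this sum came from 1 gene. CTHT_0051820 alone made up 66.4%, 27.9% and 59.6% of the summed normalised reads of the set in the 3 reference libraries, 17.6% to 22.0% in glucose and 19.1%, 49.0% and 17.8% in xylose. Ranked by normalised reads per kb of gene span among all genes tested with a known span, the 70 genes had median percentiles of 37.8 (reference), 12.6 (glucose) and 33.7 (xylose). The set spanned almost the whole range of levels in the reference, from percentile 9.19 to 99.9.

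**Figure D1:**
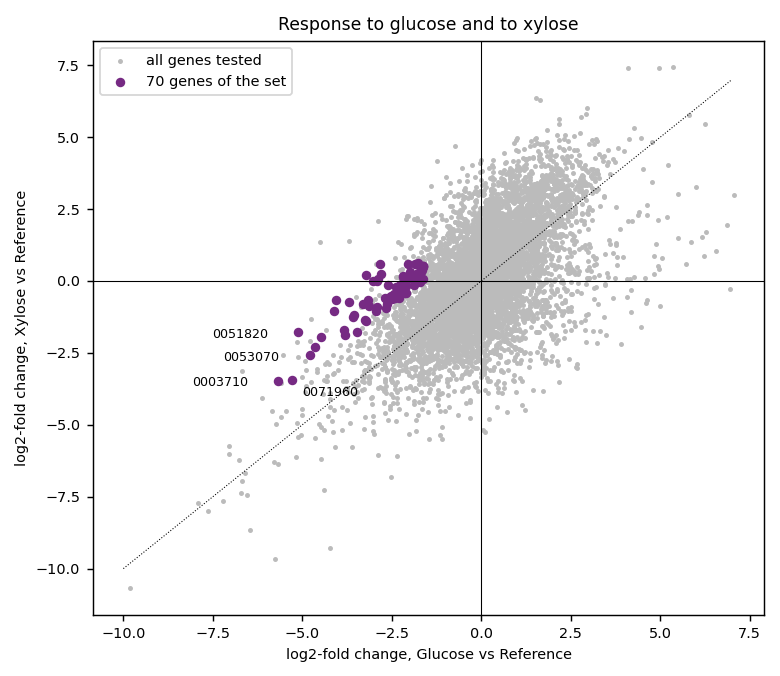
Log2-fold change in glucose against the reference (x axis) and in xylose against the reference (y axis) for each gene tested (grey) and for the 70 genes of the set (purple), with the dotted line where both are equal. The 70 genes lie between -5.67 and -1.62 on the x axis and between -3.47 and 0.63 on the y axis, above the dotted line, as the rule requires.

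The response to xylose varied across the set. The ratio of the mean in xylose to the mean in the reference had a median of 0.715 and ran from 0.0848 to 1.47. It was at most 1/3 in 9 genes, between 1/3 and 2/3 in 23 genes and above 2/3 in 38 genes, of which 21 exceeded 1. Thus some genes were low in both sugars but lowest in glucose, whereas others kept about their reference level in xylose. The rule shapes this split, since it also asks for a xylose mean of at least 3 times the glucose mean. A gene lowered by little more than 3-fold in glucose could therefore not be low in xylose. In edgeR's test 13 of the 70 genes (18.6%) were called lower in xylose than in the reference, where 32.4% of all genes tested were lower. None was called higher, where 32.3% of all genes were; no gene of the set was higher at an unadjusted p under 0.05, nor in the DESeq2 Wald test. The rule itself caps the ratio at 1.5, so these shares cannot be set against the other genes.

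In 14 of the 70 genes (20%) each xylose library lay below each reference library, beside 34.7% of all genes tested, and in none did each xylose library lie above each reference library. The number of genes called lower in xylose depended on single libraries. It was 21 without reference replicate 2 and 20 without xylose replicate 2. Calls changed in 25 of the 70 genes when 1 library was left out. In 21 a call was gained, in CTHT_0069560 as higher, and in 4 it was lost. CTHT_0069740, called lower with all libraries, lost its call in 5 of 6 such fits.

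**Figure D2:**
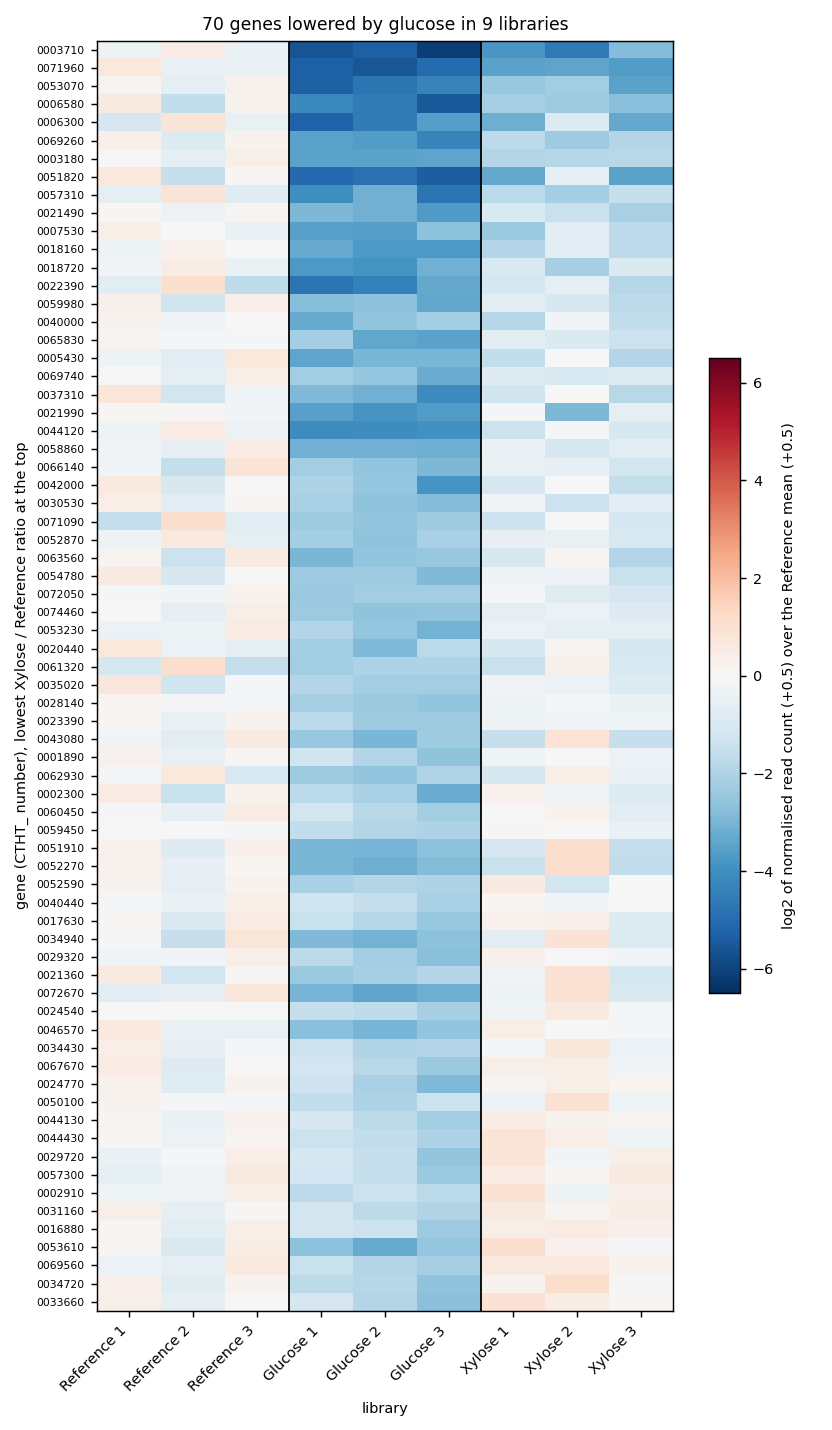
Each row is 1 of the 70 genes and each column 1 library; the colour gives the log2 of the normalised reads over the mean of the reference libraries, and rows run from the lowest (top) to the highest (bottom) ratio of xylose to reference. The glucose columns are blue in all rows, while the xylose columns pass from blue at a ratio of 0.0848 to pale red at 1.47.

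The largest decrease belonged to CTHT_0003710, an uncharacterised protein. CTHT_0003710 had 25361, 46691 and 23771 normalised reads without sugar, 658, 797 and 456 with glucose and 2294, 1320 and 4511 with xylose. The 3 conditions did not overlap, and xylose stood closer to glucose than to the reference, at 0.0848 of the reference mean. Its log2-fold change was -5.67 ± 0.55 (SE, n = 3 libraries per condition, as for all such values below) in glucose and -3.47 ± 0.50 in xylose. Per kb of gene span it was at percentile 98.0 in the reference and 41.9 in glucose.

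CTHT_0051820, also uncharacterised, was the most abundant gene of the set per kb. CTHT_0051820 had 508928, 114565 and 339039 normalised reads without sugar, 9751, 11029 and 7792 with glucose and 32113, 207295 and 29065 with xylose. Thus xylose replicate 2 lay above the lowest reference library, while the other 2 xylose libraries lay far below all of them. Its log2-fold change in glucose was -5.11 ± 0.93, and in xylose it was -1.78 ± 0.81 and not called. Without xylose replicate 2 the ratio of xylose to reference went from 0.279 to 0.0953, and the gene was called lower in xylose, as it also was without reference replicate 2. Even in glucose it remained at percentile 92.8 per kb. The genes on either side of it in gene order, CTHT_0051810, a putative cytochrome b5 protein, and the uncharacterised CTHT_0051830, were also lower in glucose, with log2-fold changes of -1.65 and -1.70.

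The set held 6 oxidoreductases, a group formed after the members were seen. Their median was -3.84 (log2-fold change) in glucose and -1.11 in xylose. In xylose 3 of the 6 were called lower, beside 18.6% of the 70 genes and 32.4% of all genes tested. CTHT_0071960 encodes a catalase-peroxidase, an enzyme that removes hydrogen peroxide. It had 26664, 12030 and 11908 normalised reads without sugar, 430, 354 and 528 with glucose and 1514, 1570 and 1344 with xylose. The xylose libraries agreed closely and lay apart from both other conditions, and the log2-fold changes were -5.30 ± 0.40 in glucose and -3.44 ± 0.37 in xylose.

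By KO assignment, CTHT_0018720 and CTHT_0006300 are both tyrosinases, copper enzymes that oxidise phenols and take part in pigment formation in fungi. CTHT_0018720, at percentile 94.8 per kb in the reference, had 14918, 23445 and 12726 normalised reads without sugar, 1284, 1139 and 1976 with glucose and 8478, 3796 and 8978 with xylose. In this gene xylose lay between the other conditions without overlap, at 0.416 of the reference, although its call as lower in xylose was lost without xylose replicate 2. CTHT_0006300, at percentile 11.2, had 71.4, 273 and 106 normalised reads without sugar, 3.5, 6.0 and 12.1 with glucose and 16.2, 81.2 and 14.6 with xylose. Its glucose values rest on few reads, at the least 4 in a library, and its log2-fold change of -4.48 ± 0.86 in glucose became -3.73 without reference replicate 2. In xylose it was -1.94 ± 0.72, and -3.17 without xylose replicate 2. The call as lower in xylose was lost without reference replicate 2, xylose replicate 1 or xylose replicate 3, and that as higher in xylose than in glucose without glucose replicate 1, glucose replicate 2 or xylose replicate 2. The rule puts glucose lowest in both tyrosinases. In both the xylose mean was below the reference mean, as in most of the set, where 21 of 70 genes exceeded it. The 2 genes differed in which xylose library stood out, since replicate 2 was the lowest in CTHT_0018720 and the highest in CTHT_0006300.

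By their annotation, only 2 of the 70 genes have a product that acts directly on cellulose or its fragments. CTHT_0022390 encodes a cellobiose dehydrogenase-like protein, a secreted enzyme type that oxidises the disaccharide cellobiose and supplies electrons for the oxidative cleavage of cellulose. It had 323, 1058 and 164 normalised reads without sugar, 18.3, 24.2 and 50.0 with glucose and 230, 336 and 142 with xylose. Xylose and reference overlapped in this gene, and its log2-fold change of -4.12 ± 0.71 in glucose became -3.04 without reference replicate 2. In xylose it was not called, except as lower without reference replicate 3. CTHT_0042000 encodes a glucanase with a KO assignment as cellobiohydrolase, which releases cellobiose from the ends of cellulose chains. It had 2549, 802 and 1600 normalised reads without sugar, 406, 285 and 114 with glucose and 766, 1687 and 567 with xylose. Again the reference and xylose overlapped, and the log2-fold changes were -2.64 ± 0.57 in glucose and -0.65 ± 0.54 in xylose. The remaining 2 oxidoreductases were not called lower in xylose. The putative aryl-alcohol protein CTHT_0046570 had a ratio of xylose to reference of 1.11, and the putative FMN-binding protein CTHT_0043080 had 0.858. In CTHT_0043080 xylose replicates 1 and 3 lay below all reference libraries, and without xylose replicate 2 the ratio became 0.354 and the gene was called lower in xylose.

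**Figure D3:**
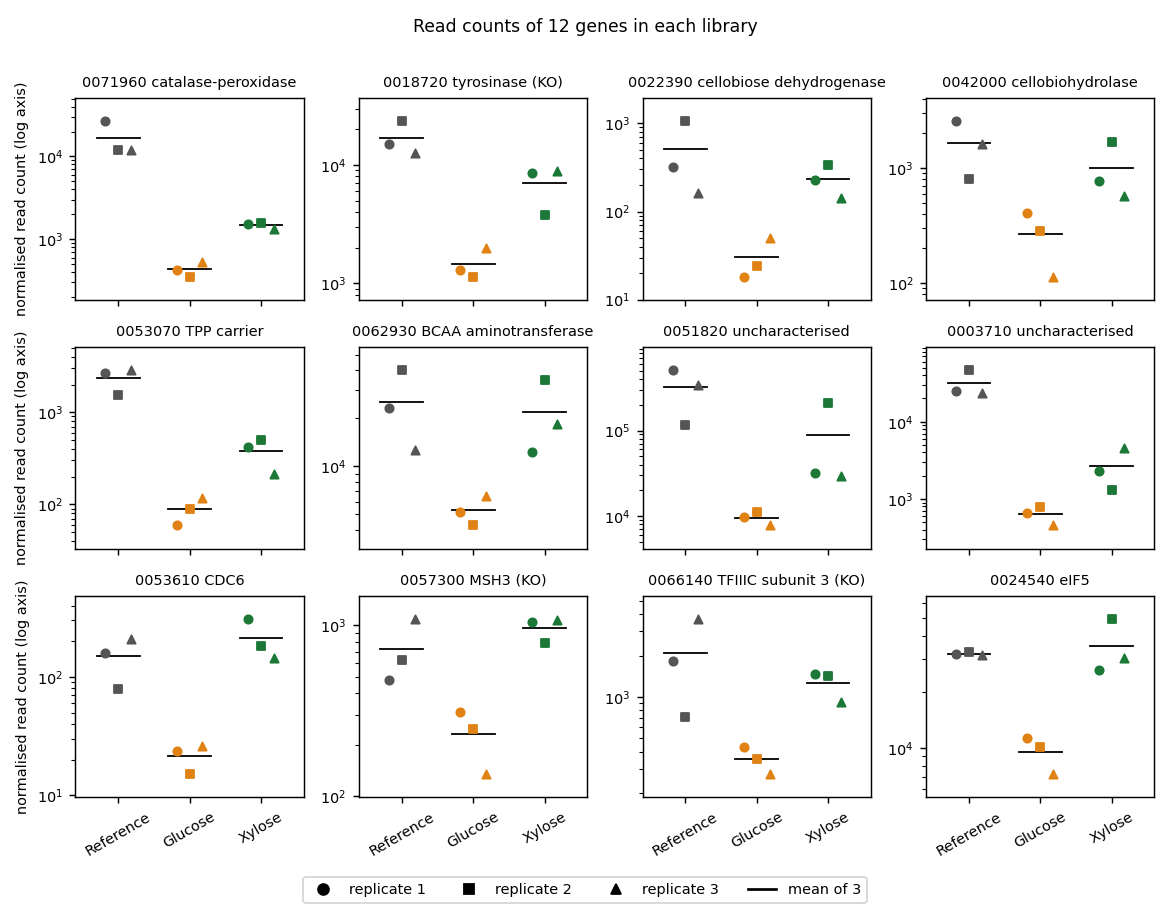
Normalised reads (log axis) of 12 genes of the set in each library, with circles, squares and triangles for replicates 1, 2 and 3 and a line at the mean of 3. Glucose is lowest in each panel, and xylose ranges from 0.0848 of the reference mean in CTHT_0003710 to 1.41 times it in CTHT_0053610.

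The 4 transport proteins of the set included 2 mitochondrial carriers. CTHT_0053070, by KO the carrier of thiamine pyrophosphate, the cofactor of pyruvate dehydrogenase and related enzymes, had 2691, 1528 and 2875 normalised reads without sugar, 59.2, 88.7 and 117 with glucose and 422, 496 and 212 with xylose. Its conditions did not overlap, and it was low with both sugars, with log2-fold changes of -4.78 ± 0.44 in glucose and -2.58 ± 0.39 in xylose. CTHT_0071090 is a putative oxaloacetate carrier. It had 1234, 7513 and 2205 normalised reads without sugar, 736, 617 and 728 with glucose and 1461, 3677 and 1657 with xylose. Here reference replicate 2 and xylose replicate 2 were both well above their replicates, and the log2-fold change of -2.41 ± 0.59 in glucose became -1.33 without reference replicate 2. Its call as higher in xylose than in glucose was lost without any 1 of the glucose libraries and without xylose replicate 2.

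The other 2 transporters had ratios of xylose to reference of 0.944 and 1.42. CTHT_0059450, a putative monocarboxylic acid transporter, had 918, 919 and 826 normalised reads without sugar, 288, 239 and 219 with glucose and 945, 914 and 655 with xylose. Xylose and the reference overlapped with narrow spread, and the log2-fold change in xylose was -0.01 ± 0.25. The putative ABC transporter CTHT_0069560, of a family that pumps substrates with energy from ATP, was close to the upper limit of the rule and was called higher in xylose without reference replicate 3.

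The metabolic enzymes were 4 in number. None was called lower in xylose, beside 18.6% of the 70 genes and 32.4% of all genes tested. CTHT_0062930, a branched-chain amino acid aminotransferase, exchanges amino groups in the synthesis and breakdown of leucine, isoleucine and valine. It had 23161, 40172 and 12713 normalised reads without sugar, 5148, 4266 and 6516 with glucose and 12352, 34675 and 18477 with xylose. The reference and xylose values covered the same range, and glucose lay below both. CTHT_0061320 has a KO assignment that joins lysophospholipase and asparaginase activity. It had 9167, 45358 and 7045 normalised reads without sugar, 4357, 5163 and 5025 with glucose and 7651, 25905 and 10399 with xylose. Replicate 2 was by far the highest in the reference and in xylose. Without reference replicate 2 the log2-fold change in glucose went from -2.10 ± 0.68 to -0.76 and the gene was not called, as it was not without any 1 of the glucose libraries. It was also the only gene of the set not called higher in xylose than in glucose.

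CTHT_0052590 is the only gene of the set from fatty acid oxidation. Its KO is that of a dienoyl-CoA isomerase, which prepares unsaturated fatty acids for breakdown. It had 338, 188 and 345 normalised reads without sugar, 67.9, 76.6 and 72.5 with glucose and 438, 129 and 289 with xylose. Glucose was narrow and low, while xylose replicate 2 fell below the lowest reference library, and the ratio of xylose to reference was 0.981. The O-methyltransferase-like protein CTHT_0040000 had a ratio of 0.50, which went to 0.305 without xylose replicate 2, and it was then called lower in xylose.

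For genome maintenance and cell division there were 9 genes, at a median of -2.18 (log2-fold change) in glucose and 0.15 in xylose. Of these, none was called lower in xylose, beside 18.6% of the 70 genes and 32.4% of all genes tested. In 5 the mean in xylose exceeded that in the reference. The rule limits how low xylose can be in genes moderately lowered in glucose, so nothing is read from these counts. Replication and mitosis were represented by CTHT_0053610, the origin licensing factor CDC6, by CTHT_0029320, a subunit of the anaphase-promoting complex that triggers the separation of sister chromatids, and by CTHT_0029720, a component of the spindle pole body. CTHT_0053610 had 160, 78.9 and 210 normalised reads without sugar, 23.5, 15.1 and 25.9 with glucose and 309, 182 and 144 with xylose. Xylose and reference overlapped, and both lay above glucose, with log2-fold changes of -2.83 ± 0.49 in glucose and 0.58 ± 0.44 in xylose. CTHT_0029320 and CTHT_0029720 had log2-fold changes of -2.18 ± 0.35 and -1.62 ± 0.41 in glucose and of 0.15 ± 0.33 and 0.49 ± 0.40 in xylose.

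The DNA repair and checkpoint genes of this group covered several pathways. By KO, CTHT_0057300 is MSH3, which with its partner recognises loops in mismatched DNA, CTHT_0063560 is a 3-methyladenine glycosylase that removes alkylated bases, CTHT_0002300 is the translesion polymerase iota, CTHT_0001890 is a helicase of the Bloom syndrome type and CTHT_0067670 is HUS1, part of the checkpoint clamp. CTHT_0057300 had 477, 623 and 1088 normalised reads without sugar, 312, 246 and 135 with glucose and 1046, 786 and 1075 with xylose. In this gene xylose covered the upper part of the reference range. The 5 genes had log2-fold changes between -2.68 and -1.68 in glucose and between -0.59 and 0.49 in xylose. The lowest xylose value, that of CTHT_0063560, depended on xylose replicate 2, without which it was called lower in xylose, and its call as higher in xylose than in glucose was lost without glucose replicate 1. CTHT_0058860, which resembles Rif1, a protein that limits telomere length in yeast, was at -3.17 ± 0.34 in glucose and -0.65 ± 0.31 in xylose. It was called lower in xylose without reference replicate 2 and without xylose replicate 1.

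Of the 7 genes for chromatin and transcription, 6 were not called lower in xylose. Over the 70 genes 18.6% were called lower, and over all genes tested 32.4%. Chromatin remodelling complexes, which move nucleosomes with energy from ATP, were represented by CTHT_0023390, by KO the SNF5-type core subunit of SWI/SNF, by CTHT_0044130, a subunit of the RSC complex, and by CTHT_0024770. CTHT_0023390 had 1502, 955 and 1603 normalised reads without sugar, 421, 274 and 264 with glucose and 1094, 1150 and 1133 with xylose. Its xylose values differed little and lay inside the reference range. CTHT_0044130 and CTHT_0024770 were at 1.23 and 1.18 times the reference in xylose and had log2-fold changes of -1.65 ± 0.33 and -2.0 ± 0.40 in glucose.

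General transcription factors were present for 2 of the RNA polymerases. CTHT_0066140, by KO a subunit of TFIIIC, which directs RNA polymerase III to tRNA genes, had 1829, 713 and 3697 normalised reads without sugar, 433, 351 and 274 with glucose and 1464, 1424 and 912 with xylose. All xylose values fell within the wide reference range, and the log2-fold change of -2.58 ± 0.50 in glucose became -1.88 without reference replicate 3. CTHT_0035020, by KO the factor TFIIB of RNA polymerase II, was at -2.14 ± 0.44 in glucose, which became -1.53 without reference replicate 1. Both genes were called lower in xylose only without reference replicate 2. In contrast, the putative sequence-specific DNA-binding protein CTHT_0003180 had 3234, 2060 and 4134 normalised reads without sugar, 285, 281 and 293 with glucose and 836, 860 and 902 with xylose. It formed 3 separate levels with narrow spread in both sugars, and it was the only gene of the group called lower in xylose, at -1.78 ± 0.27. The putative transcription factor CTHT_0040440 lay at the edge of the rule, with the smallest decrease in glucose of the set.

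The 3 genes for RNA processing and translation had ratios of xylose to reference of 1.10 to 1.35, and none was called higher. These genes were lowered by little more than 3-fold in glucose. The rule itself thus kept their xylose means from falling far below the reference, so nothing is read from these ratios. CTHT_0024540 encodes the translation initiation factor eIF5, which stimulates GTP hydrolysis on the start codon. It had 31850, 33011 and 31702 normalised reads without sugar, 11304, 10108 and 7207 with glucose and 26135, 49569 and 30621 with xylose. Only xylose replicate 2 exceeded the reference libraries, and without it the ratio of xylose to reference turned from 1.10 to 0.882. This gene was the steadiest of the set in the reference, with a coefficient of variation of 2.23%, and was at percentile 97.6 per kb there and at 89.5 in glucose. CTHT_0016880 is by KO a subunit of the cleavage stimulation factor, which acts in the formation of mRNA 3' ends. CTHT_0031160 is POP4 of ribonuclease P, which trims precursor tRNAs. In glucose these were at -1.62 ± 0.35 and -1.62 ± 0.38.

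The last 2 genes with a product name are a kinase and an ATPase. The serine/threonine kinase CTHT_0054780 had 3214, 1061 and 2164 normalised reads without sugar, 416, 413 and 293 with glucose and 1729, 1658 and 791 with xylose. Xylose and the reference overlapped. The ATPase-like protein CTHT_0069260 had 14734, 6121 and 13730 normalised reads without sugar, 1052, 919 and 559 with glucose and 3497, 2318 and 3043 with xylose. Its conditions did not overlap, and it was called lower in xylose at -1.89 ± 0.38.

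**Figure D4:**
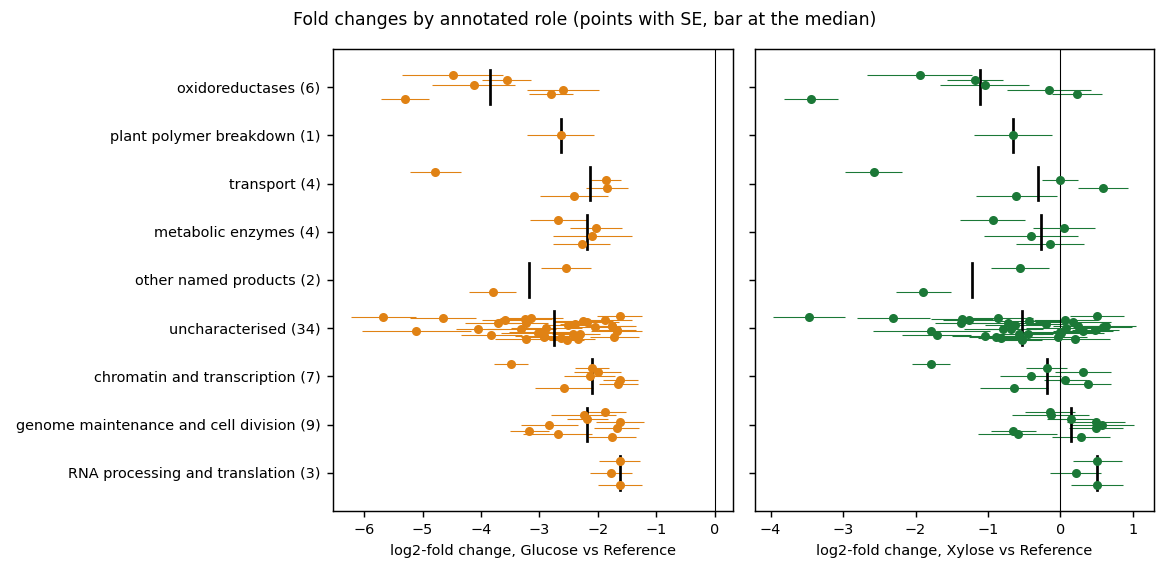
Log2-fold changes of the 70 genes in glucose (left) and xylose (right) against the reference by annotated role, with the number of genes in brackets, the SE as a line and the median as a black bar. In xylose the medians run from -1.22 in the 2 other named products and -1.11 in oxidoreductases to 0.15 in genome maintenance and cell division and 0.51 in RNA processing and translation. The rule keeps genes that were little lowered in glucose from being low in xylose, so these differences are partly set by the selection.

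The 34 uncharacterised genes covered nearly the full range of the set. Their log2-fold changes ran from -5.67 to -1.63 in glucose, with a median of -2.76, and from -3.47 to 0.63 in xylose, with a median of -0.53. Of these genes 7 (20.6%) were called lower in xylose, beside 18.6% of the 70 genes and 32.4% of all genes tested. In 9 the mean in xylose exceeded that in the reference. CTHT_0006580 was among the 7, with 10446, 2299 and 8088 normalised reads without sugar, 386, 301 and 157 with glucose and 1552, 1417 and 1039 with xylose. By contrast, CTHT_0044120 had 4527, 8090 and 4382 normalised reads without sugar, 329, 350 and 366 with glucose and 2170, 5198 and 2728 with xylose. Its glucose values were narrow, its xylose mean was 9.66 times that in glucose, and it was called lower in xylose only without xylose replicate 2. CTHT_0021990 had the lowest value of xylose replicate 2 relative to its replicates. It had 7978, 7874 and 6644 normalised reads without sugar, 638, 516 and 602 with glucose and 7004, 999 and 4836 with xylose.

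Replicates of a condition differed widely in part of the set. The median coefficient of variation over the 70 genes was 37.3% (reference), 26.3% (glucose) and 37.8% (xylose), and over all genes tested it was 27.2%, 17.2% and 24.0%. The widest spread in the reference was found in CTHT_0061320 (105%), CTHT_0022390 (92.6%), CTHT_0071090 (92.6%), CTHT_0066140 (72.5%) and CTHT_0006300 (71.8%). All of these except CTHT_0066140 had their highest reference value in replicate 2.

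The second replicates of reference and xylose stood out in different ways. The rule used these same library values, and a high xylose replicate 2 helps a gene to meet it, so the shares below are partly set by the selection and nothing is read from their difference to all genes. Xylose replicate 2 was at least 2 times as high as both other xylose libraries in 18 of the 70 genes (25.7%), compared with 5.82% of all genes tested. Reference replicate 2 was the lowest reference library in 44 genes (62.9%), compared with 40.6%, and at most 1/2 of both others in 15 genes (21.4%), compared with 6.49%. On the other hand, it was at least 2 times as high as both others in 5 genes (7.14%), compared with 10.1%. Across the 70 genes the deviation of xylose replicate 2 from its replicates and that of reference replicate 2 had a Pearson's r of -0.04 and a Spearman's rho of -0.13. Over the 6865 genes tested with no count of 0, both values were -0.03. Genes are not independent replicates. The 2 deviations share the scaling of the libraries, and among the 70 genes the rule used both libraries.

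Leaving out xylose replicate 2 lowered the median ratio of xylose to reference from 0.715 to 0.628, an alternative chosen after seeing the data. The number of genes with a ratio of at most 1/3 then went from 9 to 13, and that above 2/3 from 38 to 33. Among the 69 genes called between xylose and glucose, the fold change of 15 moved by over 1.5 times when 1 library was left out. In 12 of these the library was xylose replicate 2. CTHT_0061320, which was not called there, went from 1.69 to 1.01 (log2) without this library. In the comparison of glucose and reference 10 genes moved by over 1.5 times, in 5 of which the library was reference replicate 2. What sets these libraries apart was not tested.

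**Figure D5:**
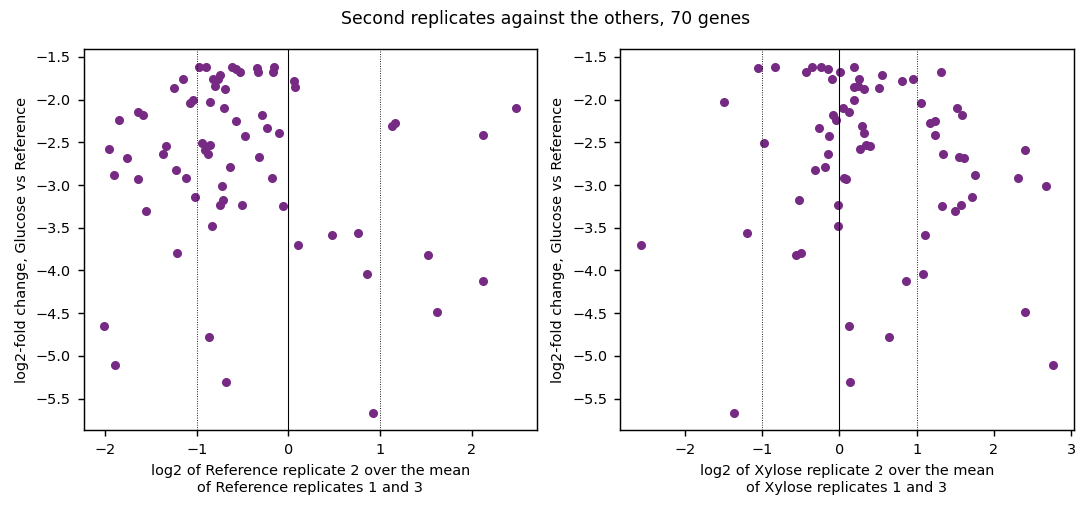
For each of the 70 genes, the log2 ratio of the second replicate to the mean of the other 2 libraries of its condition (x axis; reference on the left, xylose on the right) against the log2-fold change in glucose (y axis), with dotted lines at a 2-fold difference. Most genes lie left of 0 in the reference, whereas in xylose the points reach further right, with CTHT_0051820 at 6.78-fold.

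The 70 genes had a median gene span of 1855 bp, compared with 1567 bp over all genes tested. In gene order, 2 pairs of the set were direct neighbours. CTHT_0044120, described above, lay 2607 bp from the RSC subunit gene CTHT_0044130, and the uncharacterised CTHT_0057310 lay 4777 bp from the MSH3 gene CTHT_0057300. The 2 genes of a pair differed in size of response. On the log2 scale CTHT_0044120 changed by -4.05 ± 0.39 with glucose and CTHT_0044130 by -1.65 ± 0.33. CTHT_0057310 changed by -3.82 ± 0.52, or by -3.12 without reference replicate 2, and CTHT_0057300 by -1.68 ± 0.39. Of the 123 neighbouring genes outside the set that were tested, 39 (31.7%) were lower in glucose, 26 were higher and 58 were not called, beside 25.4% lower among all genes tested. Gene spans of the set did not overlap those of these neighbours.

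Most listed genes of fatty acid oxidation, of the peroxisome and of the glyoxylate cycle and gluconeogenesis were lower in glucose, where 25.4% of all genes tested were. The set holds 70 of the 6904 genes tested, so most genes of any list fall outside it. The lists were drawn by text patterns from product names and KO assignments, which the annotation columns give for 57.8% of the genes tested. They hold some matches of another description. Amino acid breakdown, for example, includes CTHT_0041430, described as a putative F-actin-capping protein and counted as lower. It also includes CTHT_0060440, a lysine-forming saccharopine dehydrogenase. The annotation columns list genes that the study had called changed or that were abundant in glucose, so the counts are not independent evidence of a direction. Shares over all genes tested are therefore not matched to the lists. In glucose, 20 of 23 genes of fatty acid oxidation were lower and 1 was higher, 15 of 17 peroxisomal genes were lower, and so were 6 of 9 genes of the glyoxylate cycle and gluconeogenesis. Of these 3 lists the set held only CTHT_0052590. Of the 22 other genes of fatty acid oxidation, 16 were lower and 1 was higher in xylose than in the reference, and 3 were higher and 1 was lower in xylose than in glucose. Of the 9 genes of the glyoxylate cycle and gluconeogenesis, 7 were lower in xylose than in the reference, and 3 were lower and none was higher in xylose than in glucose. Among all genes tested, 32.4% were lower and 32.3% higher in xylose than in the reference. Against glucose, 22.6% were lower and 28.2% higher in xylose.

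On further lists, 10 of 11 amino acid and peptide transporters and 14 of 23 genes matched to amino acid breakdown were lower in glucose. Also lower were 6 of 9 sugar and carboxylic acid transporters and 5 of 10 autophagy genes. None of these listed genes belonged to the set. However, the patterns missed 2 genes of the set described above, the putative monocarboxylic acid transporter CTHT_0059450 and the branched-chain amino acid aminotransferase CTHT_0062930. Of 52 genes matched as polysaccharide-degrading enzymes 34 were lower and 5 higher in glucose, and the set held CTHT_0042000 alone. The 52 include CTHT_0034060, described as a cutinase transcription factor, and CTHT_0007880, described as a galactosyltransferase, both counted as lower. Among 92 genes matched as transcription regulators 58 were lower and 9 higher, with CTHT_0003180, CTHT_0040440 and CTHT_0066140 in the set. The 92 include CTHT_0025560, described as a putative single-stranded DNA-binding protein and counted as higher. They lack CTHT_0035020, the TFIIB gene of the set. Of 15 mitochondrial carriers 10 were lower and 4 higher, with CTHT_0053070 and CTHT_0071090 in the set. In total, 170 of 253 genes on the lists were lower in glucose. The set held 7 of the 253, beside 70 of all 6904 genes tested. As 69 of the 70 are in the annotation columns, nothing is read from this difference.

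The limits of the rule cut through a continuous range. Just inside the 3-fold limit between reference and glucose were CTHT_0040440 (3.02), CTHT_0016880 (3.03) and CTHT_0002910 (3.04), and just outside were CTHT_0029920 (2.996), CTHT_0066910 (2.95) and CTHT_0053500 (2.88). Between xylose and glucose, CTHT_0040440 (3.002), CTHT_0061320 (3.02) and CTHT_0003180 (3.02) were inside, and CTHT_0041410 (2.998), CTHT_0019690 (2.997) and CTHT_0071800 (2.996) were outside. This limit alone kept out 131 genes, while the limit between reference and glucose alone kept out 19. Of the ratio of xylose to reference, CTHT_0033660 (1.47), CTHT_0034720 (1.43) and CTHT_0069560 (1.42) were inside, and CTHT_0074190 (1.52), the endonuclease subunit SLX4 of DNA repair, ENSRNA049505860 (1.52) and CTHT_0049170 (1.59) were outside. The limit of 100 normalised reads in the reference was met by CTHT_0050100 (126), CTHT_0053610 (150) and CTHT_0006300 (150.2) and missed by CTHT_0018930 (93.1), CTHT_0064300 (86.6) and CTHT_0021010 (85.9), a putative high-affinity glucose transporter. A further 12 genes met all limits on means but had overlapping libraries. With each of the 9 libraries left out in turn, 25 of the 70 genes met the rule each time, and 48 met it without xylose replicate 2.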

How the data were processed

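Wild-type C. thermophilum cultures were sequenced with a polyA-selected, strand-specific kit in single-end mode. The authors mapped the reads with TopHat2 and counted them per gene, and deposited raw counts without normalization, 1 column per library. Tool versions and the treatment of reads that map to several or overlapping genes are not given in the sources used here, so near-identical genes could share reads. Condition and replicate number came from the sample labels, which call the cultures biological replicates.

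The rule was applied to counts divided by median-of-ratios size factors over the 6503 genes with at least 10 counts in all 9 libraries. Fold changes came from edgeR 4.0.16 (limma 3.58.1, R 4.3.3) with TMM scaling, filterByExpr (minimum count 10) and the quasi-likelihood test in 1 model of the 3 conditions, with Benjamini-Hochberg adjustment over 6904 genes and a threshold of 0.05. The SE is the log2-fold change divided by the square root of F. DESeq2 1.42.0 was an alternative, as were other scalings, filters, a replicate block, a fit of 2 conditions, other limits of the rule and each library left out. Totals of 38806913 to 52229013 reads set the precision. No replicates differed by less than sampling noise.

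Product names and KO assignments came from annotation columns of the supplementary tables, whose values were not used. RefSeq assembly CTHT_3.0 served for gene type, order and span only, since its build was not matched to that of the counts. It matched 7472 of 7785 genes. No sequences were used here. Named genes are members with a specific product, on a list, among the most abundant, most lowered or most variable, at the extremes of the xylose to reference ratio, next to each other, or nearest a limit of the rule. Roles were assigned after the members were seen. The members and lists were chosen with earlier results of these data known. On simulated counts of 6904 genes for glucose against reference, the edgeR procedure called 76 of the 100 genes simulated with a 4-fold increase and 15 of the 100 with a 2-fold increase. Decreases in glucose, the direction of the set, were not simulated. There were 3 false calls.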

Additional observations from a re-analysis of the deposited data

How the results depend on the processing

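The choice of limits set the size of the gene set. With glucose at most 1/2 of the other conditions 226 genes met the rule, and with at most 1/4 it was met by 27. Scaling by TMM gave 85 genes, of which 67 were among the 70, and total counts gave 95, with 59 among the 70. Leaving out 1 library gave 55 to 105 genes. The number of genes of the set called lower in xylose than in the reference ranged from 10 to 21 with 1 library left out, and the number called higher from 0 to 1, the latter without reference replicate 3 (CTHT_0069560). Counts of 69 or 70 lower in glucose, and of 65 to 70 higher in xylose than in glucose were found under all alternatives. The filter of 10 counts in every library removed CTHT_0006300. Of the fold changes of single genes under all alternatives, 2615 moved by less than 1 SE and 112 by more, and no called one changed sign.

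Scaling by total counts shifted the median of all genes tested from -0.05 to 0.06 in xylose against the reference and from 0.16 to 0.34 in xylose against glucose, and that of the 70 genes from -0.41 to -0.32 and from 2.11 to 2.24. The medians of the role groups kept their sign under the 3 scalings. The correlation of deviations between same-numbered libraries ran from -0.28 to 0.29. It was positive for number 1 in the 3 pairs of conditions (0.29, 0.21 and 0.17), each number 1 library matching number 1 best, but not for numbers 2 and 3 throughout, so the numbers were not taken to pair the cultures. With the replicate block 3343 genes were called in glucose against the reference, 4399 in xylose against the reference and 3374 in xylose against glucose, and 70, 13 and 70 genes of the set, in place of 3416, 4463 and 3504, and of 70, 13 and 69. For rare genes such as CTHT_0006300, counts as low as 4 limit the precision.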
